A study of Homo sapiens with 6 samples.

Results

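The enzymes described here make serine, turn it into glycine and break glycine down. They were taken by gene symbol from a table of 60605 genes, and each of the 9 symbols matched 1 row: PHGDH, PSAT1 and PSPH of serine synthesis, SHMT1 and SHMT2 of the serine to glycine step, and GLDC, AMT, GCSH and DLD of the glycine cleavage system. RNA was measured in HepG2 cells, an established line from a human liver cancer, labelled wild type in genotype. One group had been infected with a lentivirus that carries a short hairpin RNA against circFTO, a circular RNA of the FTO gene (sh-circFTO, n = 3 libraries), and the other with a lentivirus that carries a control hairpin (sh-control, n = 3 libraries). Both groups were grown in DMEM with fetal bovine serum, so the media of these libraries are not labelled as lacking serine or glycine, which the series title names. The labels name a single hairpin per group and give the cell type as epithelial, while the growth protocol says mesenchymal. Nothing in them tells if the 3 libraries of a group came from independent cultures. The p-values therefore reflect library to library spread, which may be technical.

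Serine synthesis branches off glycolysis: PHGDH oxidises a glycolytic intermediate, PSAT1 transfers an amino group to it from glutamate, and PSPH removes the phosphate to leave serine. SHMT1 in the cytosol and SHMT2 in mitochondria then move a carbon of serine onto folate and leave glycine. In mitochondria the glycine cleavage system can take glycine apart again: GLDC removes the carboxyl carbon, the lipoic acid arm of GCSH carries what is left, AMT hands a further carbon to folate, and DLD re-oxidises the arm. DLD also serves the pyruvate, oxoglutarate and branched-chain keto acid dehydrogenases, and the liver is a main site of glycine cleavage.

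Promoter windows of 250 bases upstream of the annotated start were available for 7 of the 9 genes (RefSeq, GRCh38.p14). PSPH and SHMT2 had none, so of the genes that fell only PHGDH, PSAT1 and SHMT1 were searched. The windows of PHGDH, PSAT1 and GLDC are shown because the first pair was lower in sh-circFTO and the last was not. The capitals mark CCAAT or its reverse complement ATTGG. The PHGDH window is chr1:119711684-119711933 on the plus strand, the PSAT1 window chr9:78296875-78297124 on the plus strand, and the GLDC window chr9:6645730-6645979 on the minus strand, each printed 5′ to 3′ along its gene. The PHGDH window lies inside the gene span of the deposited table given below, since RefSeq places the start used here downstream of the start of that span.
PHGDH: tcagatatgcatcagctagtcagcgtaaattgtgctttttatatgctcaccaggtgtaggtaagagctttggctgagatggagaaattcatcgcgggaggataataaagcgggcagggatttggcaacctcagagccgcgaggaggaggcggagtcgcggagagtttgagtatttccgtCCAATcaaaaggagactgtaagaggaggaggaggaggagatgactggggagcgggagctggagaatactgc
PSAT1: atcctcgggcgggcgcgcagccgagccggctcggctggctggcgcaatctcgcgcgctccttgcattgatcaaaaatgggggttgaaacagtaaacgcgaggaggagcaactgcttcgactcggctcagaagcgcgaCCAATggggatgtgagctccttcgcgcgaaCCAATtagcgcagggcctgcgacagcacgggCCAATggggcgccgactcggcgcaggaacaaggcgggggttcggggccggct
GLDC: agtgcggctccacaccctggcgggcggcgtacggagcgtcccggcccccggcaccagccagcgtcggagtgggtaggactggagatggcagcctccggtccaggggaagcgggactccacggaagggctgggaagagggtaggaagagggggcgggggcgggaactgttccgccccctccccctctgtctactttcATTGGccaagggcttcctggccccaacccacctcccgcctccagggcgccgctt
PSAT1 held 3 copies of CCAAT, PHGDH 1 copy, and GLDC 1 copy on the opposite strand. Counting the first listed window of each gene, 6 of 7 held CCAAT on either strand, against 32% of 35116 windows of all genes. DLD was the exception, and its other listed window held 1 copy. CCAAT was therefore present upstream of genes that fell and of genes that did not. Neither the E-box CACGTG, the site that MYC and its partner MAX bind, nor the amino acid response core TGATGNAA, which ATF4 binds, occurred on either strand in any of the 7 first windows, against 6.34% and 3.14% of all windows. This says only that these letters are not in these windows, and no window of PSPH or SHMT2 was searched. CCAAT was searched after the windows had been seen.

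The second set of sequences concerns GCSH, which has a processed pseudogene nearly identical to its coding bases. The table counts the 2 separately. The pseudogene is annotated over 522 bases, against an exonic length of 3640 bases for GCSH. The GCSH exons outside the coding sequence were not compared with it. GCSHP5, on chromosome 1 (168055901 to 168056422), matched the GCSH coding sequence over all 522 bases with 1 mismatch (GENCODE release 29), and the longest identical run was 399 bases. The mismatch, in capitals, is G123A, counted from the first base of the start codon, and coding bases 93 to 153 are shown around it.
GCSH: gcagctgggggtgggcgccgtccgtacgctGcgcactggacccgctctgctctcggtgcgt
GCSHP5: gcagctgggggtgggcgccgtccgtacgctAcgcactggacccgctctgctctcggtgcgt

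In sh-circFTO, all 5 enzymes that make serine or convert it to glycine fell, by 2-fold or more. GLDC and DLD, the only glycine cleavage enzymes in the main test, passed it in neither direction. Of the 9 genes, 7 reached the filter of at least 1 FPKM (fragments per kilobase of exon, scaled to the library total) in 3 libraries, and AMT and GCSH did not. A gene was called at an adjusted p under 0.05 (edgeR's quasi-likelihood test, Benjamini-Hochberg over 12865 genes), and 34.8% of those genes were called lower in sh-circFTO, 34.9% higher and 69.7% in either direction. A called fall of at least 2-fold was found for 7.62% of tested genes and a called rise of that size for 7.07%. The libraries of the 2 groups did not overlap for the same 5 enzymes in the lower direction and for GLDC in the higher one, against 35.7% and 35.8% of tested genes. The median log2 fold change of the 7 tested enzymes was -1.27, against 0.00 for all tested genes. These changes are relative to a gene of median change: scaling by library size alone moved the median of all genes up by 0.15 on the log2 scale. The falls were then -2.84 for PHGDH, -1.36 for PSAT1, -1.12 for PSPH, -1.04 for SHMT1 and -1.35 for SHMT2. With that scaling GLDC was called higher, at 0.24.

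**Figure D1:**
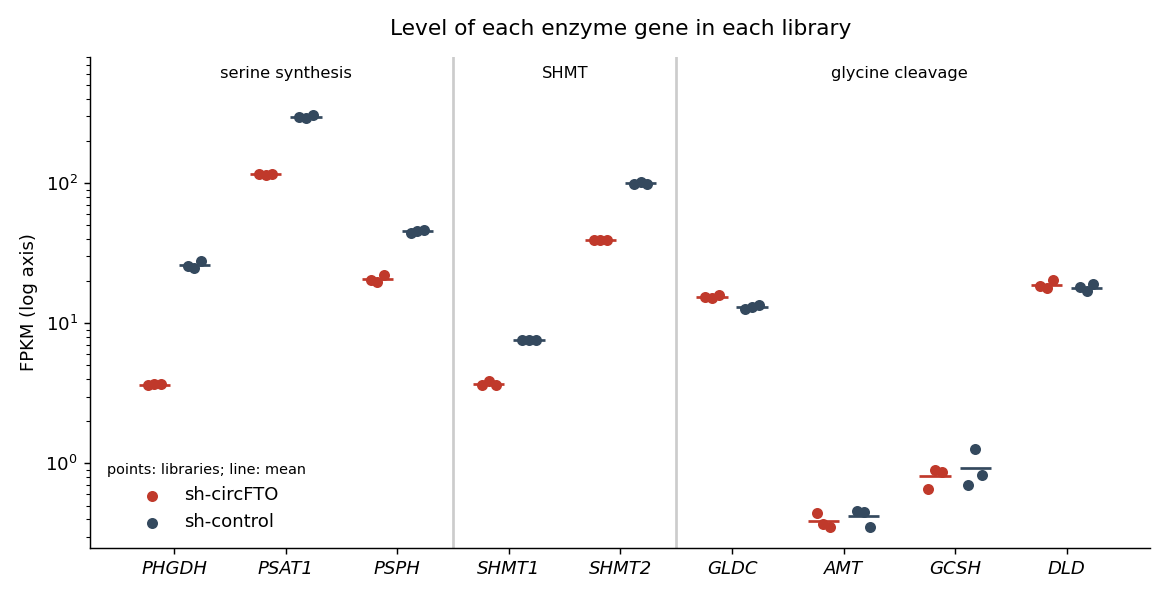
FPKM of each enzyme gene (log axis) in every library, sh-circFTO left of sh-control, with points for libraries and a line for the mean of 3. The points of the serine synthesis and SHMT genes are lower and separate in sh-circFTO, while those of AMT, GCSH and DLD overlap between groups.

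PHGDH (ENSG00000092621, chromosome 1 from 119648411 to 119744218, coordinates as the files give them, on GRCh38) catalyses the first and committed step of serine synthesis. Its level in CPM (counts scaled to library size, with TMM factors) was 31.6, 32.1 and 31.9 in the sh-circFTO libraries, against 248, 238 and 270 in the sh-control libraries. The sh-circFTO libraries lay within 1 CPM of each other and far below every sh-control library. The level was 12.6% of that in sh-control (95% interval 11.7% to 13.7%), a log2 fold change of -2.98 (SE 0.0553, adjusted p = 9.28e-27 by edgeR). Among the 12865 tested genes it ranked 19 from the lowest log2 fold change.

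PSAT1 (ENSG00000135069, chromosome 9 from 78297125 to 78330093), the aminotransferase of the second step, was the most abundant of the 9. It had 244, 242 and 245 CPM in sh-circFTO, against 684, 676 and 717 CPM in sh-control. The groups did not overlap, and the level was 35.2% of that in sh-control (95% interval 33.3% to 37.2%). PSPH (ENSG00000146733, chromosome 7 from 56011051 to 56051604), the phosphatase of the last step, had 53.9, 52.0 and 58.4 CPM in sh-circFTO, against 127, 133 and 135 CPM in sh-control. It too was separate between groups, at 41.6% of the sh-control level (95% interval 38.5% to 45.0%). The log2 fold changes were -1.51 for PSAT1 (SE 0.0387, adjusted p = 1.25e-23 by edgeR) and -1.27 for PSPH (SE 0.0549, adjusted p = 2.91e-18 by edgeR).

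The 2 serine hydroxymethyltransferases fell as well. SHMT2 (ENSG00000182199, chromosome 12 from 57229573 to 57234935), the mitochondrial form, had 171, 170 and 171 CPM in sh-circFTO, against 478, 492 and 476 CPM in sh-control, which is 35.4% of the sh-control level (95% interval 33.5% to 37.4%). SHMT1 (ENSG00000176974, chromosome 17 from 18327860 to 18363563), the cytosolic form, had 25.3, 26.8 and 24.9 CPM in sh-circFTO, against 58.2, 58.3 and 58.3 CPM in sh-control. Its level was 44.1% of that in sh-control (95% interval 39.9% to 48.6%). The groups were separate for both genes, with log2 fold changes of -1.50 for SHMT2 (SE 0.0393, adjusted p = 2.04e-23 by edgeR) and -1.18 for SHMT1 (SE 0.0691, adjusted p = 3.33e-15 by edgeR). SHMT1 shares 196 exonic bases with SMCR8 on the opposite strand (2.69% of its exonic bases), and SMCR8 was higher in sh-circFTO (log2 fold change 0.69, adjusted p = 2.96e-12 by edgeR). SHMT2 shares 427 exonic bases (8.83%) with an opposite-strand gene (ENSG00000276727) that held 6 counts over sh-circFTO and 14 over sh-control. It shares 33 more with NDUFA4L2, also on the opposite strand, which held 1154 and 961 counts. Whether counting used strand is not given in the sources used here, so the part of opposite-strand reads in the SHMT1 and SHMT2 counts was not tested.

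Among the glycine cleavage genes, GLDC (ENSG00000178445, chromosome 9 from 6532467 to 6645729), the glycine decarboxylase, had 131, 127 and 134 CPM in sh-circFTO, against 118, 122 and 126 CPM in sh-control. All 3 sh-circFTO libraries lay above all 3 sh-control libraries, but the gap was narrow, and such separation in either direction was found for 71.5% of tested genes. The log2 fold change was 0.10 (SE 0.0466, 95% interval 0.00 to 0.19, unadjusted p = 0.0478 and adjusted p = 0.0668 by edgeR), so the gene was not called. It was called higher when scaled by library size alone (0.24, adjusted p = 3.65e-05 by edgeR) and without sh-control replicate 3 (0.12, adjusted p = 0.0306 by edgeR). Under every setting tried, GLDC lay above zero.

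DLD (ENSG00000091140, chromosome 7 from 107891162 to 107931730), the dihydrolipoamide dehydrogenase, had 89.4, 86.8 and 98.6 CPM in sh-circFTO, against 97.2, 90.5 and 102 CPM in sh-control. The groups overlapped. The log2 fold change was -0.08 (SE 0.0569, 95% interval -0.19 to 0.04, adjusted p = 0.240 by edgeR), and it turned to 0.070 (adjusted p = 0.279 by edgeR) when scaled by library size alone. The interval leaves out any fall as large as those of the serine synthesis genes. DLD shares 70 exonic bases (1.32%) with LAMB1 on the opposite strand. LAMB1 held 28609 counts over sh-circFTO and 26101 over sh-control, against 4234 and 4227 for DLD, and its part in the DLD count was not tested.

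AMT and GCSH were close to the lower limit of what these libraries can measure. AMT (ENSG00000145020, chromosome 3 from 49416778 to 49422685), the aminomethyltransferase, had 33, 33 and 29 counts in the sh-circFTO libraries, against 39, 41 and 30 in the sh-control libraries. GCSH (ENSG00000140905, chromosome 16 from 81081945 to 81096395), the lipoylated carrier, had 32, 51 and 47 counts in sh-circFTO, against 38, 74 and 45 in sh-control. The groups overlapped for both. With edgeR's own expression filter, which keeps 15386 genes and calls 65.5% of them in either direction, the log2 fold change was -0.30 for AMT (SE 0.278, 95% interval -0.86 to 0.26, adjusted p = 0.347 by edgeR) and -0.37 for GCSH (SE 0.251, 95% interval -0.87 to 0.14, adjusted p = 0.201 by edgeR). Neither difference was detectable at this depth, and without sh-control replicate 2 the GCSH value was -0.08.

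The counts of both low genes also carry a limit from the annotation. Of the exonic bases of AMT, 63.1% lie in exons of a longer protein-coding gene on the same strand (ENSG00000283189), which itself held 29 counts over the sh-circFTO libraries and 22 over the sh-control libraries. The corresponding share for GCSH was 12%, with a longer gene on its strand (ENSG00000260643) that held 79 counts over sh-circFTO and 64 over sh-control. GCSHP5, the pseudogene with 1 mismatch, held 51, 74 and 44 counts in sh-circFTO, against 70, 67 and 85 in sh-control, more in total than GCSH itself. Reads over the identical stretches cannot be told apart by sequence. GCSHP5 alone was called lower with the wider filter (log2 fold change -0.50, SE 0.210, adjusted p = 0.0369 by edgeR), although its groups overlapped, and GCSH alone was not. GCSH and GCSHP5 summed gave 83, 125 and 91 counts in sh-circFTO, against 108, 141 and 130 in sh-control, and a log2 fold change of -0.44 (SE 0.157, adjusted p = 0.0130 by edgeR). This summed fall, computed after the counts had been seen, was called in 3 of 6 fits that each left out a library (adjusted p = 0.0608 without sh-circFTO replicate 1, adjusted p = 0.0675 without sh-circFTO replicate 3 and adjusted p = 0.0514 without sh-control replicate 3, by edgeR) and not when scaled by library size alone (-0.28, adjusted p = 0.118 by edgeR). Of 12 pseudogenes named after the 9 enzymes, 10 had 0 counts in every library. The other was GLDCP1, with 97.4% identity to the GLDC coding sequence over its aligned length, which held 100 counts over sh-circFTO and 81 over sh-control, against 6043 and 5361 for GLDC.

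**Figure D2:**
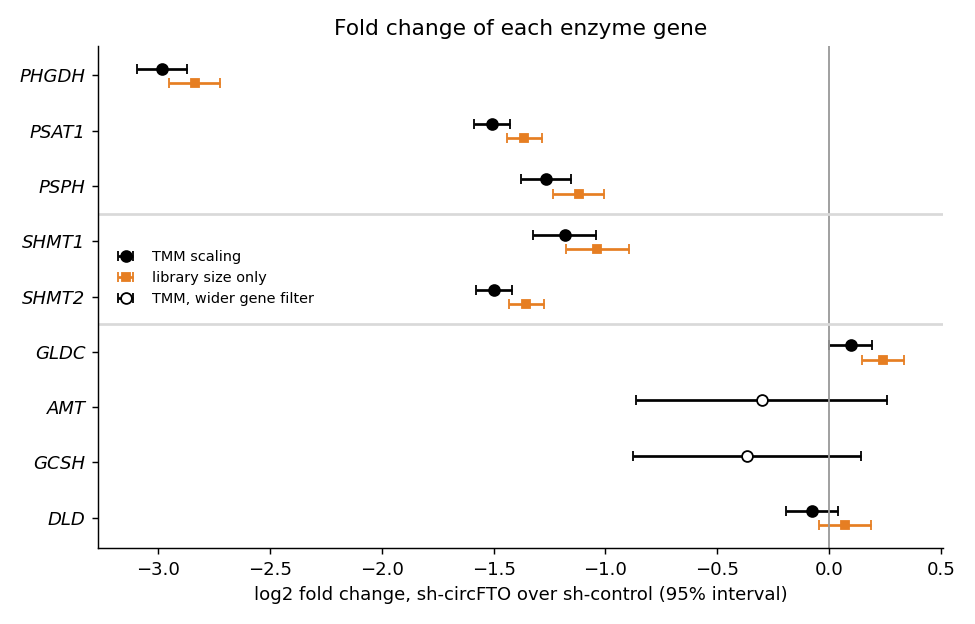
Log2 fold change of sh-circFTO over sh-control for each enzyme gene with its 95% interval, under TMM scaling (circles, open for the 2 genes fitted with the wider gene filter) and with library size only (squares). The 5 serine synthesis and SHMT genes lie between -2.98 and -1.18 under TMM scaling, and DLD changes sign between the scalings.

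Ratios of FPKM within a library do not depend on how libraries are scaled. None of the 6 pairs tested passed, since groups of 3 cannot reach the threshold, and the values are given as measured. PHGDH was 0.0311, 0.0318 and 0.0314 of PSAT1 in the sh-circFTO libraries, against 0.0872, 0.0846 and 0.0903 in the sh-control libraries. The log2 ratio differed by -1.47 (SE 0.0293), and the groups did not overlap. PSPH was 0.176, 0.172 and 0.191 of PSAT1 in sh-circFTO, against 0.148, 0.157 and 0.151 in sh-control, a difference of 0.24 on the log2 scale (SE 0.0517). The mitochondrial to cytosolic ratio SHMT2/SHMT1 was 10.7, 10.1 and 10.9 in sh-circFTO, against 13.0, 13.4 and 12.9 in sh-control, a difference of -0.31 (SE 0.0364). Each of these 3 pairs gave p = 0.1 in a two-sided exact permutation test, which is the lower limit for groups of 3, and 0.2 after Benjamini-Hochberg adjustment over 6 pairs. The 3 pairs with GCSH below overlapped between groups: the exact permutation p was 0.2 for GLDC/GCSH, 0.8 for AMT/GCSH and 0.6 for DLD/GCSH. These 3 pairs carry the limit that GCSHP5 sets on the GCSH count.

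Other pairs, chosen after the values were seen, are given without a test. GLDC was 0.396, 0.386 and 0.406 of SHMT2 in sh-circFTO, against 0.128, 0.128 and 0.137 in sh-control. Against PHGDH, GLDC stood at 4.27, 4.11 and 4.34 in sh-circFTO and at 0.493, 0.531 and 0.484 in sh-control. The decarboxylase thus had the higher FPKM of that pair in sh-circFTO and the lower one in sh-control. SHMT2 was 0.336, 0.339 and 0.336 of PSAT1 in sh-circFTO, against 0.336, 0.350 and 0.319 in sh-control, and these ranges overlapped. DLD was 1.19, 1.19 and 1.28 times GLDC in sh-circFTO, against 1.43, 1.29 and 1.41 times in sh-control, and the sh-circFTO libraries lay lower.

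**Figure D3:**
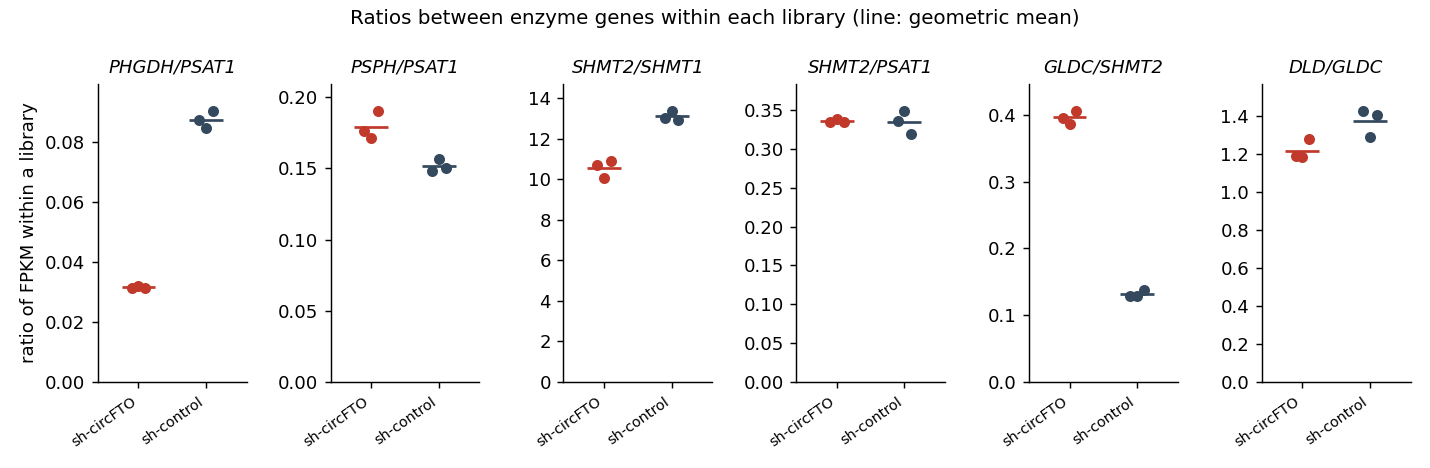
Ratio of FPKM between 6 pairs of enzyme genes within each library, sh-circFTO left of sh-control, with the geometric mean as a line. PHGDH/PSAT1, SHMT2/SHMT1 and DLD/GLDC are lower in sh-circFTO, PSPH/PSAT1 and GLDC/SHMT2 are higher, and SHMT2/PSAT1 overlaps.

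The order of levels, in FPKM and so per length of exon, was partly kept. PSAT1 came first with 116 ± 0.775 FPKM in sh-circFTO and 298 ± 8.13 FPKM in sh-control (mean ± SD, n = 3 each), and SHMT2 second with 39.1 ± 0.0702 FPKM in sh-circFTO and 99.9 ± 1.94 FPKM in sh-control. PSPH followed, at 20.8 ± 1.26 FPKM in sh-circFTO and 45.3 ± 1.28 FPKM in sh-control. In sh-circFTO its range overlapped that of the next gene, DLD, at 18.9 ± 1.30 FPKM. PHGDH stood at 3.65 ± 0.0265 FPKM in sh-circFTO, level with SHMT1 at 3.71 ± 0.144 FPKM. In sh-control PHGDH came next after PSPH, at 26.1 ± 1.57 FPKM, above DLD, GLDC and SHMT1, and no neighbours in that order overlapped. GCSH and AMT were last in both groups, at 0.807 ± 0.127 and 0.387 ± 0.0473 FPKM in sh-circFTO and at 0.930 ± 0.293 and 0.420 ± 0.0608 FPKM in sh-control. GCSHP5, counted over 522 bases, had 7.33 ± 1.64 FPKM in sh-circFTO and 9.26 ± 1.51 FPKM in sh-control. How reads identical in GCSH and GCSHP5 were assigned is not given, so the level of GCSH is uncertain.

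Among tested genes with a symbol, those whose profile over the 6 libraries lay closest to that of PHGDH were INHBE, TRIB3, SLC22A3, BOK-AS1 and ASS1, by Euclidean distance between mean-centred log2 CPM values (0.152 to 0.275). INHBE, which encodes an inhibin beta chain made in liver, had 9.12 ± 0.412 CPM in sh-circFTO and 70.0 ± 3.68 CPM in sh-control. SLC22A3, an organic cation transporter, had 7.06 ± 0.323 CPM in sh-circFTO and 53.6 ± 2.41 CPM in sh-control. All 5 had log2 fold changes between -3.25 and -2.84. This likeness to PHGDH follows from how they were picked, since the distance includes the difference between the groups, and it is no separate result.

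The counts of related lists stand against 34.8% of all 12865 tested genes called lower and 34.9% called higher (3471 and 5700 genes when scaled by library size alone). Of 11 tested folate enzymes, which handle the carbon from serine and glycine, 7 fell and 2 rose, with a median log2 fold change of -0.33. Scaled by library size alone, 6 fell and 3 rose. MTHFD2 and MTHFD1L, which act on mitochondrial folate downstream of SHMT2, changed by -1.82 (SE 0.0462) and -1.52 (SE 0.0536). ALDH1L2, a mitochondrial formyl-folate dehydrogenase, changed by -2.27 (SE 0.167). It passed the filter of 1 FPKM through sh-control alone, with 0.25, 0.27 and 0.33 FPKM in sh-circFTO against 1.24, 1.32 and 1.21 FPKM in sh-control. GGH, which trims the glutamate tail of folates, changed by -1.35 (SE 0.0607). All 4 passed edgeR's quasi-likelihood test, as their choice by smallest adjusted p made sure. The 2 folate enzymes that rose, named after their values were seen, were FPGS (0.43, SE 0.0670, adjusted p = 1.66e-06 by edgeR) and MTHFD2L (0.26, SE 0.0913, adjusted p = 0.0123 by edgeR).

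Of the carriers that move serine and glycine, 8 of 14 tested genes were lower and 4 higher, against 34.8% and 34.9% of all genes, with a median of -0.30 (6 lower and 4 higher when scaled by library size alone). The 8 include SLC6A14, which passed the filter through sh-control alone (0.81, 0.67 and 0.58 FPKM in sh-circFTO, against 3.46, 2.93 and 3.37 FPKM in sh-control). At the plasma membrane, SLC1A5 and SLC1A4, neutral amino acid exchangers, had 39.2 ± 2.80 and 25.3 ± 0.688 CPM in sh-circFTO, against 208 ± 7.98 and 87.9 ± 3.71 CPM in sh-control. SLC6A9, a glycine transporter, had 6.65 ± 0.713 CPM in sh-circFTO and 38.9 ± 2.40 CPM in sh-control, and SLC38A1 changed by -0.76 on the log2 scale (SE 0.0411). The 4 carriers that rose, named after their values were seen, were SLC36A1, SLC38A2, SFXN1 and SFXN3. SLC36A1, a proton-coupled amino acid transporter, had 41.5 ± 2.97 CPM in sh-circFTO, 231% of its sh-control level (log2 fold change 1.21, SE 0.0845, adjusted p = 2.06e-13 by edgeR). SLC38A2, the most abundant of the 4, had 1691 ± 9.04 CPM in sh-circFTO and 1320 ± 44.2 CPM in sh-control (0.36, SE 0.0345). SFXN1, a carrier of serine into mitochondria, had 116 ± 6.33 CPM in sh-circFTO and 88.8 ± 7.60 CPM in sh-control (log2 fold change 0.38, SE 0.0575, adjusted p = 8.98e-07 by edgeR).

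Other enzymes that use or make serine and glycine had 8 of 14 tested genes lower and 4 higher (34.8% and 34.9% of all genes), with a median of -0.36 (6 lower and 5 higher when scaled by library size alone). PIPOX, a sarcosine and pipecolate oxidase, had 78.1 ± 2.72 CPM in sh-circFTO and 123 ± 7.38 CPM in sh-control. AGXT, which makes glycine from glyoxylate in liver peroxisomes, had 8.70 ± 0.722 CPM in sh-circFTO and 20.2 ± 1.09 CPM in sh-control. The phosphatidylserine synthases PTDSS1 and PTDSS2 changed by -0.57 (SE 0.0639) and -0.55 (SE 0.0726) on the log2 scale. The 4 that rose, named after their values were seen, were GCAT (0.67, SE 0.0967, adjusted p = 4.93e-07 by edgeR), which splits a threonine product into glycine and acetyl-CoA, SPTLC2 (0.39) and SPTLC1 (0.31), subunits of serine palmitoyltransferase, and ALAS1 (0.24), which uses glycine for haem.

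The genes around the lipoyl arm did not move as a group. Of 8 tested genes of lipoylation and mitochondrial fatty acid synthesis, 1 fell, 1 rose and 6 were not called, with a median of -0.02 (1 lower and 2 higher when scaled by library size alone). The fall was in LIAS, the lipoic acid synthase, with 11.1, 11.2 and 11.4 CPM in sh-circFTO, against 24.5, 24.8 and 26.2 CPM in sh-control (log2 fold change -1.16, SE 0.0984, adjusted p = 1.50e-11 by edgeR). CBR4 rose (0.27, SE 0.0777), LIPT1 stood at -0.21 (SE 0.171) and MECR at -0.12 (SE 0.0958). Among 10 subunits of the other complexes that use DLD, 4 fell and 5 rose, against 34.8% and 34.9% of all genes, with a median of 0.07 (3 lower and 5 higher when scaled by library size alone). PDHB, OGDH and DLST changed by -1.24 (SE 0.0684), -0.59 (SE 0.0672) and -0.61 (SE 0.0540), and DLAT by 0.48 (SE 0.0510). The rest of the called genes were named after their values were seen. DHTKD1 (0.55, SE 0.0693), DBT (0.53, SE 0.0871), BCKDHA (0.34, SE 0.143) and PDHX (0.19, SE 0.0530) rose, and BCKDHB fell (-0.31, SE 0.120).

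**Figure D4:**
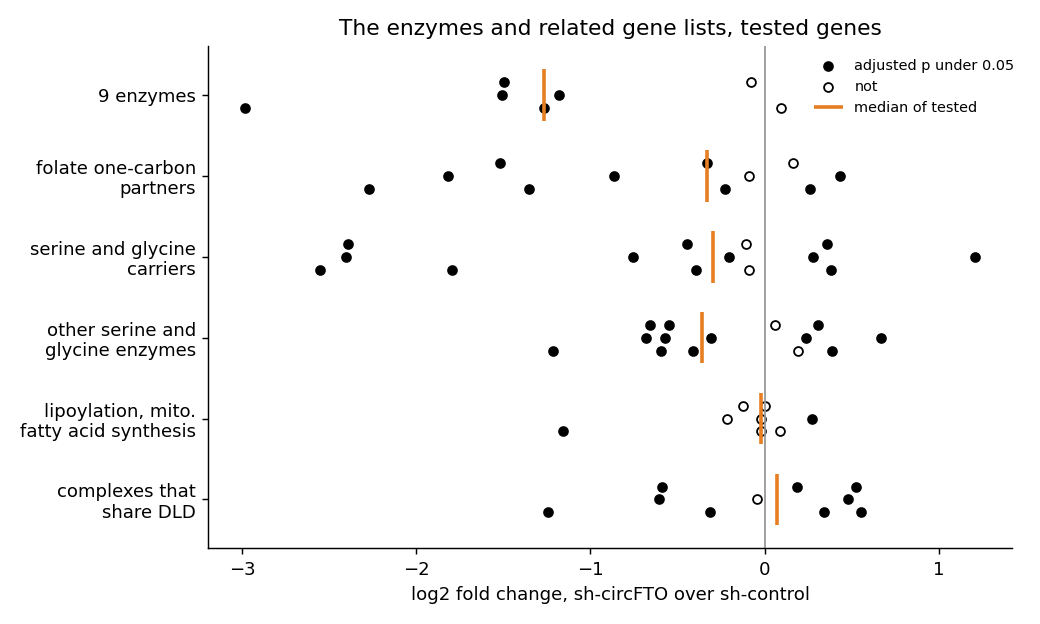
Log2 fold change of sh-circFTO over sh-control for the tested enzymes and for the tested genes of 5 related lists, filled where the adjusted p was under 0.05, with the median of each list as a bar. The enzymes have the lowest median, -1.27, and the complexes that share DLD the highest, 0.07.

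ATF4 and MYC, transcription factors that are known to drive serine synthesis genes, were both lower. ATF4 had 191, 192 and 192 CPM in sh-circFTO, against 611, 605 and 637 CPM in sh-control (log2 fold change -1.69, SE 0.0392, adjusted p = 1.57e-24 by edgeR). MYC had 174, 183 and 182 CPM in sh-circFTO, against 253, 277 and 271 CPM in sh-control (-0.57, SE 0.0433, adjusted p = 1.22e-12 by edgeR). Reads of the FTO gene did not differ detectably, at 55.5, 56.5 and 59.3 CPM in sh-circFTO and 59.4, 57.0 and 55.7 CPM in sh-control, and scaling by library size alone gave a positive value (0.14, adjusted p = 0.0413 by edgeR). Counts per gene do not measure circFTO, so the knockdown itself cannot be checked here. The part of ATF4 or MYC in the falls of the enzymes was not tested.

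Library totals ran from 13361333 to 15809084 counts in sh-circFTO and from 14932270 to 16178079 in sh-control. Mitochondrially encoded genes took 6.47% to 6.75% of counts in sh-circFTO and 7.72% to 8.11% in sh-control, and the 50 most abundant genes 14.7% to 14.9% and 18.2% to 18.7%. All 7 hepatocyte markers were expressed, and all 7 were called lower in sh-circFTO, against 34.8% of all tested genes. Their sum was 12072 to 12192 CPM in sh-circFTO and 20607 to 20897 CPM in sh-control. APOB (2528 ± 118 CPM in sh-circFTO and 7586 ± 386 CPM in sh-control) and SERPINA1 (2387 ± 25.4 CPM in sh-circFTO and 4636 ± 146 CPM in sh-control) made up most of that difference. HNF4A and TTR, at lower levels, stood at 44.4% and 38.7% of their sh-control levels, log2 fold changes of -1.17 (SE 0.0424) and -1.37 (SE 0.152). ALB, AFP and APOA1 stood at 86.7%, 84.3% and 86.1% of their sh-control levels, log2 fold changes of -0.21, -0.25 and -0.22, beside the 0.15 by which the scaling moves all genes. The 4 endothelial markers summed to 11.6 to 14.6 CPM in sh-circFTO and 5.80 to 10.3 CPM in sh-control, mostly PECAM1, and KDR was at 0. PECAM1, the only 1 of the 4 tested, was higher in sh-circFTO (log2 fold change 0.67, SE 0.158, adjusted p = 0.000447 by edgeR). It lay near the filter in sh-control, at 0.94, 1.21 and 0.67 FPKM. Of 4 blood markers, PTPRC was at 0, and LYZ made up most of the sum of 198 to 201 CPM in sh-circFTO and 954 to 1058 CPM in sh-control. The 5 fibroblast markers summed to 73.4 to 79.0 CPM in sh-circFTO and 75.4 to 84.5 CPM in sh-control, mostly ACTA2. These shares and markers moved with the groups, and their part in the enzyme results was not tested. In bulk RNA, fewer cells of a kind and less RNA per cell cannot be told apart.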

How the data were processed

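RNA of 6 HepG2 libraries, 3 sh-circFTO and 3 sh-control, was sequenced, and groups came from the titles. Per the file headers, the deposited table holds raw counts per Ensembl gene and FPKM values that the authors computed; 0 of 363630 FPKM values differed by more than 0.00501 from count over exonic length and library total. How reads were aligned and counted, and with which annotation, is not given in the sources used here. Per the submitters' processing notes, GRCm38, mm10 and hg18 were named, but the spans of the 9 genes lay within 246 bp of those in GENCODE release 29 on GRCh38.

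Genes with at least 1 FPKM in at least 3 libraries (12865) were tested on counts with edgeR 4.0.16 (R 4.3.3): TMM scaling, quasi-likelihood test, Benjamini-Hochberg adjustment, threshold 0.05. AMT and GCSH, which failed that filter, are given from the fit with edgeR's filterByExpr, chosen after seeing this. Ratios used exact two-sided permutation tests. Alternatives were DESeq2 1.42.0, other scalings and filters, the replicate number as a block, and each library left out. Sequences were aligned with Biopython 1.88. The genes named were the 9 enzymes, FTO, MYC and ATF4, up to 4 genes per related list with the smallest adjusted p, and the 5 nearest to PHGDH. The enzymes and lists were chosen with earlier results of these data known.

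On counts simulated from these libraries for 12865 genes, the fit recovered 64.0% of 50 genes changed 1.25-fold, 86.0% changed 1.5-fold and 98.0% changed 2-fold, and 5.98% of its 184 calls were unchanged genes. Only 50 genes were changed at each fold (1.25, 1.5, 2 and 4), while 69.7% of tested genes were called in the real libraries. These rates therefore cannot be taken as those of the reported fit. No library was a copy of another: chi-square per degree of freedom was 2.05 to 4.60 within groups and 97.6 to 112 between them.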

Additional observations from a re-analysis of the deposited data

How the results depend on the processing

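The 5 serine synthesis and SHMT genes kept their direction and their call under every alternative run. Their log2 fold changes with each library left out ran from -3.03 to -2.93 for PHGDH, -1.53 to -1.48 for PSAT1, -1.31 to -1.23 for PSPH, -1.22 to -1.16 for SHMT1 and -1.51 to -1.49 for SHMT2. The other ranges were 0.069 to 0.12 for GLDC, -0.13 to -0.03 for DLD, -0.40 to -0.23 for AMT and -0.54 to -0.08 for GCSH, and the number of enzymes called higher was 0 to 1. With library size as the only scaling, GLDC became called (0.24), so that 1 enzyme was higher, while DLD turned to 0.070 and FTO to 0.14 in log2 fold change. Genes called over the whole table then became 3471 lower and 5700 higher, against 4479 and 4490. The sum of GCSH and GCSHP5 was called (-0.44), but GCSH alone was not under any alternative (lowest adjusted p = 0.0769 by edgeR, without sh-control replicate 1). With a pseudocount of 1 FPKM the difference in log2 ratio shrank to -1.19 for PHGDH/PSAT1 and grew to -0.46 for SHMT2/SHMT1. With each library left out it ran from -0.18 to 0.31 for AMT/GCSH, -0.046 to 0.43 for DLD/GCSH and -0.026 to 0.040 for SHMT2/PSAT1, and the log2 fold change of FTO from -0.034 to 0.015. The cause of these shifts was not tested. Replicate numbers did not pair the libraries: deviations of same-numbered libraries correlated at -0.00176, -0.0132 and 0.0648, and with the replicate block the log2 fold change was -2.98 for PHGDH and 0.10 for GLDC, with no enzyme's call changed. Depth limits AMT and GCSH, which held 95 and 130 counts over sh-circFTO and 110 and 157 over sh-control. For GCSH, the reads that cannot be told from those of GCSHP5 are a further limit.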
